A study of Schizosaccharomyces pombe with 6 samples.

Results

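The heat shock and chaperone genes of the fission yeast *Schizosaccharomyces pombe* were followed here in strains without Cid14 or Air1. The group holds 10 genes, chosen by name for their roles and matched from symbol to systematic ID, out of 5483 features on the array: the heat shock factor gene hsf1, the small heat shock gene hsp16, the Hsp70 genes ssa1 and ssa2, the Hsp40 genes mas5 and psi1, hsp90 with its partners sti1 and wos2, and hsp104. All 10 were measured. The strains were a cid14delta mutant (SPB101), an air1delta mutant (SPB103) and the wild-type parent (SPB76), each hybridised to 2 Affymetrix tiling arrays from biological replicates. All cultures grew at 30 °C in YES, a rich yeast extract medium, and were collected at an optical density of 0.5, so no strain was heat-shocked. Both deleted genes encode parts of the TRAMP complex, which marks nuclear RNAs for decay by the exosome: Cid14 adds short poly(A) tails, and Air1 is its RNA-binding zinc-knuckle partner. Beyond the deleted gene, the labels used here give no other allele of the strains, and each strain is represented by a single strain number.

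Chaperones bind unfolded proteins, keep them from aggregating and help them reach their folded state. Hsp70 proteins work with Hsp40 (J-domain) proteins that deliver clients and trigger ATP hydrolysis; Hsp90 receives some of these clients through the adaptor Sti1 and is held in its closed form by the p23 protein Wos2; Hsp104 pulls proteins out of aggregates; small heat shock proteins such as Hsp16 hold unfolded proteins without using ATP. Hsf1 is the transcription factor that raises many of these genes on heat stress, and in fission yeast the Hsp40 protein Mas5 together with Hsp70 holds Hsf1 back in unstressed cells.

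The deletions were seen in the expression values. The log2 value of cid14 was 3.91 and 3.63 in cid14delta, against 8.92 and 8.84 in wild type, and that of air1 was 4.42 and 4.90 in air1delta, against 10.49 and 10.40 in wild type. All 10 chaperone genes lay far above this level of a deleted gene, the lowest single value being 9.22. Both wild-type arrays had a median of 9.21, while every mutant array had a higher one, from 9.27 to 9.29. The reported changes were not corrected for this offset. Median centring, which removes it, shifted the split of calls over all features towards lower values in both mutants, as given below. Changes are given as log2 change ± standard error from a limma linear model fitted to all 6 arrays, and a gene was called at an adjusted p under 0.05 over all features. The labels' array identifiers put the cid14delta and wild-type arrays in the same array series and the air1delta arrays in another, so for air1delta the strain and the array series cannot be told apart.

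The small heat shock gene hsp16 (SPBC3E7.02c) was the only one of the 10 called in both mutants. Its log2 values were 10.60 and 10.81 in cid14delta, 10.69 and 10.02 in air1delta, and 9.22 and 9.45 in wild type. All 4 mutant arrays lay above both wild-type arrays, and the air1delta arrays were further apart than those of the other strains. Expression rose by 1.37 ± 0.23 in cid14delta, a 2.58-fold change with an adjusted p of 0.0317 and a 95% interval of the log2 change from 0.79 to 1.94. In air1delta it rose by 1.02 ± 0.23, or 2.03-fold (adjusted p = 0.0305, interval 0.45 to 1.59). In RNA from whole cultures, more cells with the transcript and more transcript per cell cannot be told apart. The mutants were not separated from each other at this gene, with a difference of -0.35 ± 0.23 for air1delta minus cid14delta and an interval from -0.92 to 0.22 (adjusted p = 0.339). With the day shared by cid14delta and wild-type arrays as a block, the rise in cid14delta kept its size but had an adjusted p of 0.0582. The cid14delta call was also lost without cid14delta replicate 1 (change 1.47, adjusted p = 0.122), cid14delta replicate 2 (1.26, adjusted p = 0.17), wild type replicate 1 (1.25, adjusted p = 0.0731) or wild type replicate 2 (1.48, adjusted p = 0.0849).

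The cytosolic Hsp70 genes ssa1 and ssa2 gave changes of opposite sign, and ssa1 was called in air1delta. For ssa1 (SPAC13G7.02c) the log2 values were 11.23 and 11.23 in cid14delta, 11.82 and 11.14 in air1delta, and 10.75 and 10.58 in wild type. The mutant arrays all lay above the wild-type arrays. In air1delta ssa1 rose by 0.81 ± 0.22, a 1.76-fold change (adjusted p = 0.0447, interval 0.27 to 1.36). The value in cid14delta was 0.57 ± 0.22, which did not pass (adjusted p = 0.152, interval 0.03 to 1.11). Between the mutants ssa1 differed by 0.25 ± 0.22 (interval -0.30 to 0.79, adjusted p = 0.471), so a call in 1 mutant alone does not show a difference between them. For air1delta, the ssa1 call was lost after median centring (change 0.74, adjusted p = 0.0581) and quantile normalization (0.83, adjusted p = 0.0509). It was also lost with the shared-day block (adjusted p = 0.0746) and from the 4 arrays of both strains (adjusted p = 0.0864), and without air1delta replicate 1 the change was 0.48 (adjusted p = 0.0663).

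For ssa2 (SPCC1739.13) the log2 values were 13.35 and 13.27 in cid14delta, 13.51 and 13.38 in air1delta, and 13.58 and 13.47 in wild type. The cid14delta arrays lay below both wild-type arrays, while the air1delta arrays overlapped them. Neither change passed: -0.21 ± 0.08 in cid14delta (adjusted p = 0.15, interval -0.41 to -0.01) and -0.08 ± 0.08 in air1delta (adjusted p = 0.506, interval -0.28 to 0.12). The air1delta value turned positive, 0.04, after quantile normalization. The proteins of ssa1 and ssa2 are closely related, and the probes that stand behind each value were not used here, so signal shared between the copies cannot be set apart.

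**Figure D1:**
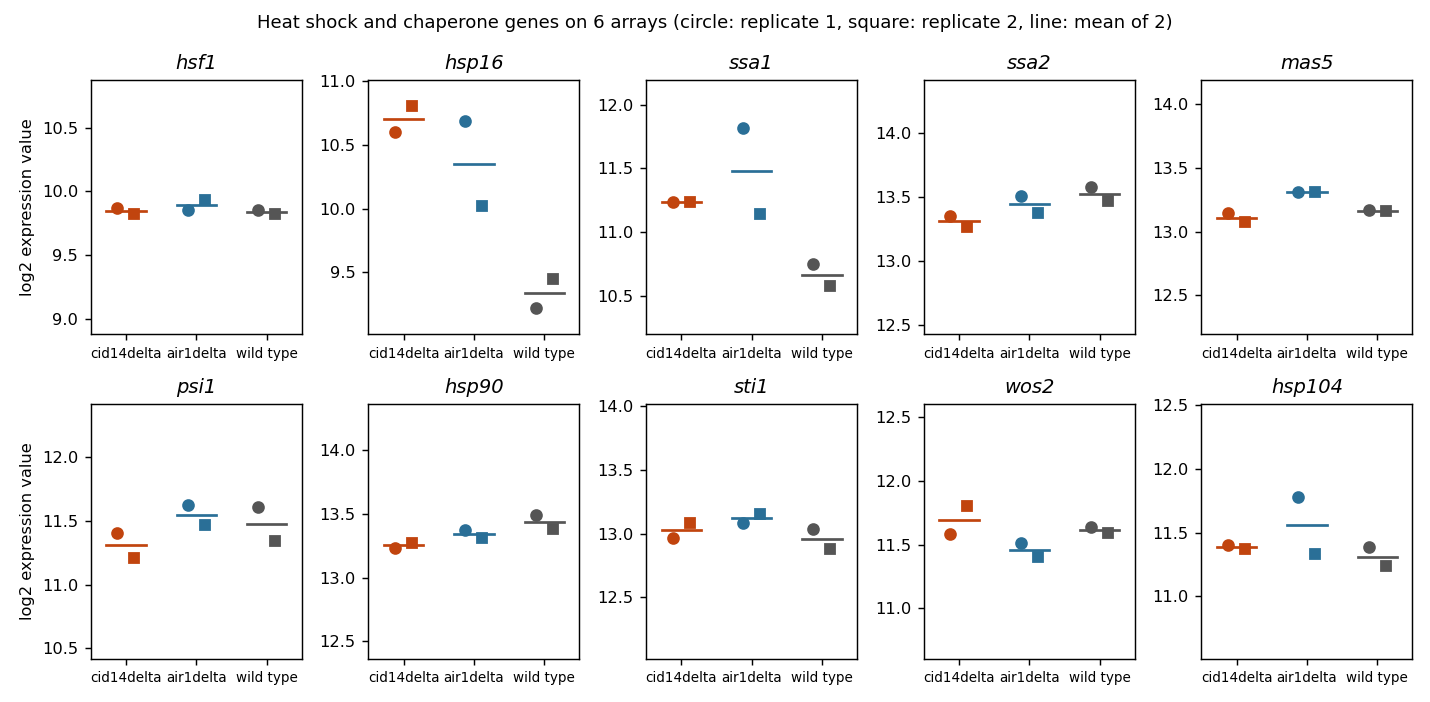
Log2 expression value of each of the 10 genes on the 6 arrays, by strain; circles are replicate 1, squares replicate 2, and lines the mean of 2 arrays. Every panel spans 2 log2 units. The arrays of both mutants lie above wild type for hsp16 and ssa1, while hsf1 stays between 9.82 and 9.93 on all arrays, and the air1delta circles stand above the squares for hsp16, ssa1 and hsp104.

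Neither Hsp40 gene was called. Mas5 encodes a class A Hsp40, and the log2 values of mas5 (SPBC1734.11) were 13.14 and 13.08 in cid14delta, 13.31 and 13.31 in air1delta, and 13.17 and 13.17 in wild type. The cid14delta arrays lay below and the air1delta arrays above both wild-type arrays, by small amounts. The changes were -0.06 ± 0.06 in cid14delta (adjusted p = 0.561) and 0.14 ± 0.06 in air1delta (adjusted p = 0.122, interval -0.0003 to 0.29). The air1delta value passed after quantile normalization (0.26, adjusted p = 0.0307) and with an intensity trend and robust moderation (adjusted p = 0.0495). The difference of air1delta minus cid14delta, 0.20 ± 0.06 with an adjusted p of 0.0832, did not pass, but did with trend and robust moderation (adjusted p = 0.0333).

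Psi1 is a class B Hsp40, the type that helps Hsp70 on aggregates. The values of psi1 (SPCC830.07c) were 11.41 and 11.21 in cid14delta, 11.62 and 11.47 in air1delta, and 11.61 and 11.34 in wild type, and each mutant overlapped the wild type. Changes of -0.17 ± 0.12 in cid14delta (adjusted p = 0.416) and 0.07 ± 0.12 in air1delta (adjusted p = 0.71) did not pass.

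Neither hsp90 nor its partner genes sti1 and wos2 were called in either mutant. The log2 values of hsp90 (SPAC926.04c) were 13.24 and 13.27 in cid14delta, 13.37 and 13.31 in air1delta, and 13.49 and 13.39 in wild type. Both mutants lay below wild type on every array, with changes of -0.18 ± 0.07 in cid14delta (adjusted p = 0.136, interval -0.35 to -0.02) and -0.10 ± 0.07 in air1delta (adjusted p = 0.323, interval -0.26 to 0.07). Neither passed, and the air1delta value turned to 0.05 after quantile normalization.

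The adaptor gene sti1 (SPCC645.14c) had log2 values of 12.97 and 13.08 in cid14delta, 13.08 and 13.16 in air1delta, and 13.04 and 12.88 in wild type. The air1delta arrays lay above wild type and the cid14delta arrays overlapped it. Its changes were 0.07 ± 0.08 in cid14delta (adjusted p = 0.613) and 0.16 ± 0.08 in air1delta (adjusted p = 0.195). The p23 gene wos2 (SPAC9E9.13) had values of 11.58 and 11.80 in cid14delta, 11.51 and 11.40 in air1delta, and 11.64 and 11.59 in wild type. Here the air1delta arrays were the low ones, below both other strains. Changes of 0.08 ± 0.09 in cid14delta (adjusted p = 0.608) and -0.15 ± 0.09 in air1delta (adjusted p = 0.262) did not pass, nor did the difference between the mutants of -0.23 ± 0.09 (adjusted p = 0.154).

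For the disaggregase gene hsp104 (SPBC16D10.08c) the log2 values were 11.40 and 11.37 in cid14delta, 11.78 and 11.33 in air1delta, and 11.39 and 11.24 in wild type. A single air1delta array, replicate 1, stood above the others, and both mutants overlapped the wild type. The changes were 0.07 ± 0.15 in cid14delta (adjusted p = 0.783, interval -0.31 to 0.45) and 0.25 ± 0.15 in air1delta (adjusted p = 0.273, interval -0.13 to 0.63).

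The regulator gene hsf1 (SPAC2E12.02) was the flattest of the 10 across the arrays. Its log2 values were 9.87 and 9.82 in cid14delta, 9.85 and 9.93 in air1delta, and 9.86 and 9.82 in wild type, a range of 0.11. The changes were 0.01 ± 0.06 in cid14delta (adjusted p = 0.926, interval -0.14 to 0.17) and 0.06 ± 0.06 in air1delta (adjusted p = 0.537, interval -0.10 to 0.21). The 95% intervals therefore reach no further than 0.21 in either mutant. Transcript level says nothing of the activity of the Hsf1 protein, which is set largely after translation.

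**Figure D2:**
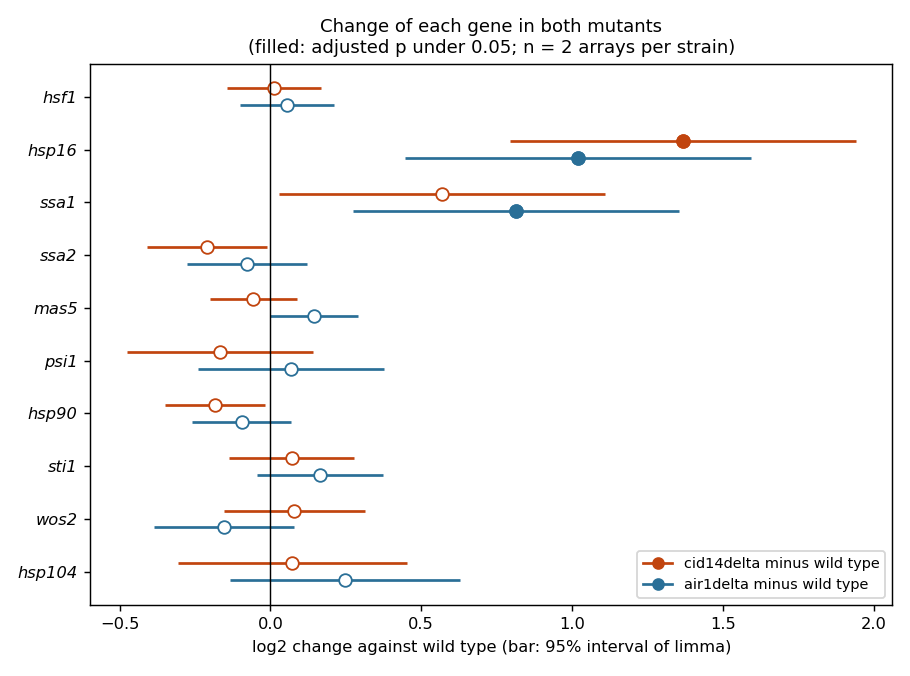
Log2 change of each gene in cid14delta (orange) and air1delta (blue) against wild type; bars are 95% intervals from limma and filled points have an adjusted p under 0.05. Only hsp16 in both mutants and ssa1 in air1delta are filled, and the other points lie between -0.21 and 0.57.

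Taken by count, 1 of the 10 genes rose, 0 fell and 9 did not pass in cid14delta, where 8.66% of all features were called (4.78% higher and 3.88% lower). In air1delta 2 rose, 0 fell and 8 did not pass, where 26.2% of all features were called (16.4% higher and 9.72% lower). In air1delta against cid14delta limma called 0 of the 10, where 10% of features were called. There 2 of the 10, mas5 and wos2, had an unadjusted p under 0.05, against 31.9% of features, and the arrays did not overlap for 5, with 4 higher and 1 lower in air1delta, against 65.2% of features. An unadjusted p under 0.05 was reached by 4 of the 10 in cid14delta (hsp16, ssa1, hsp90 and ssa2), against 29.9% of features, and by 2 in air1delta (hsp16 and ssa1), against 41.2%. The shares of the genes called were thus near those of all features. Mutant and wild-type arrays did not overlap for 5 of the 10 genes in cid14delta, 2 above and 3 below, against 62.7% of all features (35% above and 27.7% below). In air1delta they did not overlap for 6, with 4 above and 2 below, against 69% of features (39.3% above and 29.7% below). The median log2 change of the 10 genes was 0.04 in cid14delta and 0.11 in air1delta, beside medians over all features of 0.03 in both. Both mutants were compared with the same wild-type arrays.

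The air1delta replicates disagreed at the 3 genes with the largest positive changes in that strain. Replicate 1 exceeded replicate 2 by 0.67 for hsp16, by 0.67 for ssa1 and by 0.45 for hsp104. Differences between the air1delta arrays at least this large were seen for 1.37%, 1.35% and 3.63% of all features. At the other 7 genes the air1delta arrays differed by at most 0.16, and over all features the median of replicate 1 minus replicate 2 was -0.0096. The corresponding differences in cid14delta were -0.21 for hsp16, 0.0001 for ssa1 and 0.03 for hsp104, and in wild type -0.23, 0.18 and 0.15. The sign for hsp16 was thus opposite in those strains, while ssa1 and hsp104 had the same sign at smaller sizes. Among the 18 other heat and stress genes described below, air1delta replicate 1 was higher for 10 and lower for 8, with differences from -0.27 for trx1 to 0.53 for zym1 and a median of 0.02. Without air1delta replicate 1, the changes in air1delta were 0.68 for hsp16 (adjusted p = 0.0688) and 0.48 for ssa1 (adjusted p = 0.0663). Without air1delta replicate 2, they were 1.36 (adjusted p = 0.0473) and 1.15 (adjusted p = 0.0369). The air1delta calls of hsp16 and ssa1 were also lost without either wild-type array or either cid14delta array, with adjusted p from 0.0594 to 0.15.

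Other chaperone and stress genes were read from 7 lists of 64 measured genes. In cid14delta, 1 of the 64 rose, 1 fell and 62 did not pass, with a median change of 0.02. In air1delta, 16 rose, 1 fell and 47 did not pass, with a median of 0.08. The share called in cid14delta was below, and that in air1delta close to, the 8.66% and 26.2% of all features. By direction, 16.4% of all features rose and 9.72% fell in air1delta, so the listed calls leaned more to higher values there. The split over all features depended on the level of the arrays, with 640 higher and 826 lower after median centring. The split of the listed calls after centring was not counted. The air1delta count was 1 without air1delta replicate 1, 3 without air1delta replicate 2, 7 without wild type replicate 2 and 8 without either cid14delta replicate. With the shared-day block cwf23, cct2, cct8 and ish1 no longer passed in air1delta (adjusted p = 0.0658, 0.0521, 0.0551 and 0.0518). The cid14delta count was 5 without wild type replicate 1 and 0 without any single cid14delta or air1delta array.

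Among cytosolic Hsp70 partners, limma called 0 of 6 in either mutant, and 0 had an unadjusted p under 0.05. Over all features 8.66% were called in cid14delta and 26.2% in air1delta, with 29.9% and 41.2% at an unadjusted p under 0.05. The ribosome-associated Hsp70 gene sks2 had -0.16 ± 0.07 in cid14delta (adjusted p = 0.181). The Hsp110 gene pss1 had -0.12 ± 0.06 in cid14delta (adjusted p = 0.282). The nucleotide exchange factor gene fes1 had 0.18 ± 0.12 in cid14delta and 0.23 ± 0.12 in air1delta, and bag102 had -0.18 ± 0.09 in air1delta. The list medians were -0.04 in cid14delta and -0.03 in air1delta, close to those over all features.

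Of 5 further J-domain genes, limma called 0 in cid14delta (2 at an unadjusted p under 0.05), and in air1delta xdj1 and cwf23 rose while 3 did not pass. Among all features 8.66% were called in cid14delta (29.9% at an unadjusted p under 0.05), and 16.4% rose in air1delta. The change of xdj1 was 0.50 ± 0.09 in air1delta (adjusted p = 0.0178) and 0.37 ± 0.09 in cid14delta (adjusted p = 0.0598). That of cwf23, which encodes a spliceosome-associated J-domain protein, was 0.29 ± 0.07 in air1delta (adjusted p = 0.0363) and 0.28 ± 0.07 in cid14delta (adjusted p = 0.068). The air1delta call of cwf23 was lost after quantile normalization (0.10, adjusted p = 0.305) and median centring (0.22, adjusted p = 0.0649). It held when dim features were left out (adjusted p = 0.0286).

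Among 7 listed Hsp90 partners, ppt1 fell by 0.45 ± 0.06 in cid14delta (adjusted p = 0.0261), while 0 rose and 6 did not pass. The log2 values of ppt1 were 10.20 and 10.21 in cid14delta, against 10.61 and 10.70 in wild type. The symbol ppt1 in the reference table belongs to SPAC56F8.04c. It was matched by name only, and was not checked to encode the Ppt1/PP5-type phosphatase that acts on Hsp90. With the day shared by cid14delta and wild-type arrays as a block, ppt1 did not pass (adjusted p = 0.0508). In air1delta aha1, the gene of an activator of the Hsp90 ATPase, fell by 0.43 ± 0.09 (adjusted p = 0.0245), sgt1 rose by 0.66 ± 0.11 (adjusted p = 0.0153) and 5 did not pass. Of all features 4.78% rose and 3.88% fell in cid14delta, and 16.4% rose and 9.72% fell in air1delta. The symbol sgt1 in the reference table belongs to SPAC1002.10c, and the fission yeast counterpart of the Hsp90 co-chaperone Sgt1 is git7, whose change in air1delta was 0.06 ± 0.09 (adjusted p = 0.636). The cochaperone gene cdc37 had 0.19 ± 0.09 in air1delta (adjusted p = 0.194).

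The chaperonin CCT folds actin and tubulin, and prefoldin hands it newly made chains. Of 14 genes of these complexes, limma called 0 in cid14delta (1 at an unadjusted p under 0.05, against 29.9% of all features). In air1delta 6 of the 14 rose, 0 fell and 8 did not pass, where 16.4% of all features rose and 9.72% fell. The prefoldin genes pfd2 (0.68 ± 0.08, adjusted p = 0.00871), pfd5 (0.51 ± 0.10, adjusted p = 0.0211) and pfd4 (0.48 ± 0.09, adjusted p = 0.0217) rose in air1delta. The CCT subunit genes cct7 (0.27 ± 0.06), cct8 (0.31 ± 0.07) and cct2 (0.27 ± 0.06) rose there as well. Of these, pfd2, cct7 and cct2 were also higher in air1delta than in cid14delta, by 0.52 (adjusted p = 0.0289), 0.29 (adjusted p = 0.0412) and 0.35 (adjusted p = 0.0334), in a comparison that called 10% of all features. The list's median was 0.22 in air1delta, against 0.03 over all features, and 0.02 in cid14delta. The air1delta calls of cct7, cct8 and cct2 were lost after median centring (adjusted p = 0.0569, 0.0535 and 0.0682). They were also lost from the 4 arrays of both strains, but held after quantile normalization. The air1delta call of pfd4 was lost after quantile normalization (0.31, limma adjusted p = 0.0782) and from the 4 arrays (limma adjusted p = 0.0502). Those of pfd2 and pfd5 held in both settings.

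Of 6 mitochondrial chaperone genes, limma called 0 in cid14delta (2 at an unadjusted p under 0.05), and 2 rose, 0 fell and 4 did not pass in air1delta. The shares over all features were 8.66% called in cid14delta (29.9% at an unadjusted p under 0.05) and 16.4% higher in air1delta. The mitochondrial Hsp40 gene mdj1 rose by 0.34 ± 0.06 in air1delta (adjusted p = 0.0204) and was higher there than in cid14delta by 0.39 (adjusted p = 0.031). The mitochondrial disaggregase gene hsp78 rose by 0.54 ± 0.12 in air1delta (adjusted p = 0.0285). The mitochondrial Hsp70 gene ssc1 had -0.20 ± 0.07 in air1delta (adjusted p = 0.086) and -0.24 ± 0.07 in cid14delta (adjusted p = 0.0885). Of 8 endoplasmic reticulum genes, limma called 0 in cid14delta (2 at an unadjusted p under 0.05) and ero12, for an oxidase of disulfide bond formation, rose by 0.36 ± 0.07 in air1delta (adjusted p = 0.0221). The calnexin gene cnx1 had -0.19 ± 0.06 in cid14delta (adjusted p = 0.119) and -0.05 ± 0.06 in air1delta (adjusted p = 0.558).

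Of 18 other heat and stress genes, gst2 rose, 0 fell and 17 did not pass in cid14delta, and gst2, pyp2, ish1 and ubi4 rose, 0 fell and 14 did not pass in air1delta. The air1delta count is close to the 16.4% of all features that rose there, and in cid14delta 4.78% of all features rose. The glutathione S-transferase gene gst2 rose by 0.80 ± 0.14 in cid14delta (adjusted p = 0.0344) and by 0.82 ± 0.14 in air1delta (adjusted p = 0.0177). With the shared day as a block the cid14delta call of gst2 was lost (adjusted p = 0.0581). The tyrosine phosphatase gene pyp2, whose product turns down the Sty1 stress kinase, rose by 0.54 ± 0.09 in air1delta (adjusted p = 0.016). The polyubiquitin gene ubi4 rose by 0.51 ± 0.13 in air1delta (adjusted p = 0.0371), and ish1 by 0.46 ± 0.10 (adjusted p = 0.028). The air1delta call of ubi4 was lost after median centring (limma adjusted p = 0.0516). Those of pyp2 and ish1 were lost after quantile normalization (limma adjusted p = 0.057 and 0.0752), while that of gst2 held in both settings. The heat-induced gene hsp9 had log2 values of 12.33 and 12.13 in cid14delta, 11.62 and 11.61 in air1delta, and 10.56 and 11.41 in wild type. All mutant arrays lay above both wild-type arrays, and the wild-type arrays were 0.85 apart. Its changes of 1.24 ± 0.27 in cid14delta (adjusted p = 0.051) and 0.63 ± 0.27 in air1delta (adjusted p = 0.139) did not pass. The catalase gene ctt1 had 0.47 ± 0.10 in cid14delta (adjusted p = 0.0522). The list medians were 0.13 in cid14delta and 0.29 in air1delta, beside medians over all features of 0.03 in both.

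**Figure D3:**
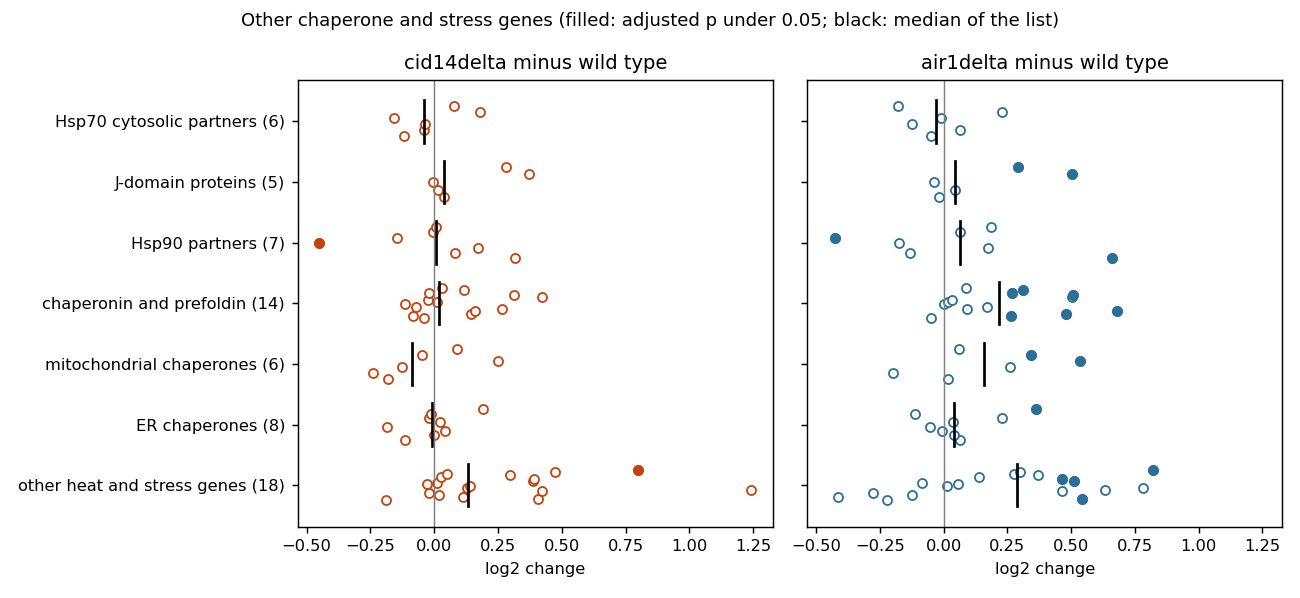
Log2 change of 64 other chaperone and stress genes in cid14delta (left) and air1delta (right) against wild type, by list with the number of genes in brackets; filled points have an adjusted p under 0.05 and black lines are list medians. Filled points number 2 in cid14delta and 17 in air1delta, where 6 of them are chaperonin and prefoldin genes.

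Because the labelled target was double-stranded, signal from a gene and from a transcript overlapping it on the other strand cannot be told apart, so the measured features next to each gene in the order of the reference table were read too. Of 20 such neighbours, 2 were called in cid14delta and 3 in air1delta, where 8.66% and 26.2% of all features were called. Among the 10 genes, 2 (hsp16 and hsp90) overlapped no other entry of the reference table. Another 3 overlapped a measured gene and 5 overlapped only entries without a value on the array. Next to hsp16, the splicing factor gene prp17 had a change of 0.00 ± 0.06 in cid14delta (adjusted p = 1) and -0.19 ± 0.06 in air1delta (adjusted p = 0.0651), and the noncoding RNA SPNCRNA.540, at the level of a deleted gene in wild type (mean 3.94), had -0.08 in cid14delta and -0.10 in air1delta. Neither neighbour of hsp16 was therefore called. Next to ssa1, the sterol synthesis gene erg7 had -0.25 ± 0.06 in cid14delta (adjusted p = 0.0641) and -0.08 ± 0.06 in air1delta, and the nonsense-mediated decay gene upf3 had 0.17 ± 0.08 in cid14delta and 0.12 ± 0.08 in air1delta. The changes of ssa1 were larger than those of its neighbours in both mutants, but neither neighbour overlaps ssa1. The entries that do overlap it, SPNCRNA.3030 and SPNCRNA.811, have no value on the array, so their signal cannot be set apart from that of ssa1.

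At hsf1, the overlapping SPAC2E12.03c fell by 0.82 ± 0.12 in cid14delta (adjusted p = 0.0251) and by 0.43 ± 0.12 in air1delta (adjusted p = 0.0451), while hsf1 had 0.01 in cid14delta and 0.06 in air1delta. At hsp104, the histone deacetylase gene sir2 on one side rose by 0.38 ± 0.08 in cid14delta (adjusted p = 0.0474) and by 0.60 ± 0.08 in air1delta (adjusted p = 0.011). On the other side pcn1, which encodes the replication clamp PCNA, fell by 0.31 ± 0.08 in air1delta (adjusted p = 0.041) and had -0.13 ± 0.08 in cid14delta (adjusted p = 0.332). With the shared-day block sir2 in cid14delta (adjusted p = 0.0704) and pcn1 in air1delta (adjusted p = 0.0536) did not pass. The change of hsp104 lay between those of its neighbours in both mutants. Neither neighbour overlaps hsp104, and the entries that do have no value on the array. The phosphatase gene ppe1, overlapping ssa2, and alg12, overlapping mas5, were not called (0.07 and -0.05 in cid14delta, -0.06 and -0.19 in air1delta).

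**Figure D4:**
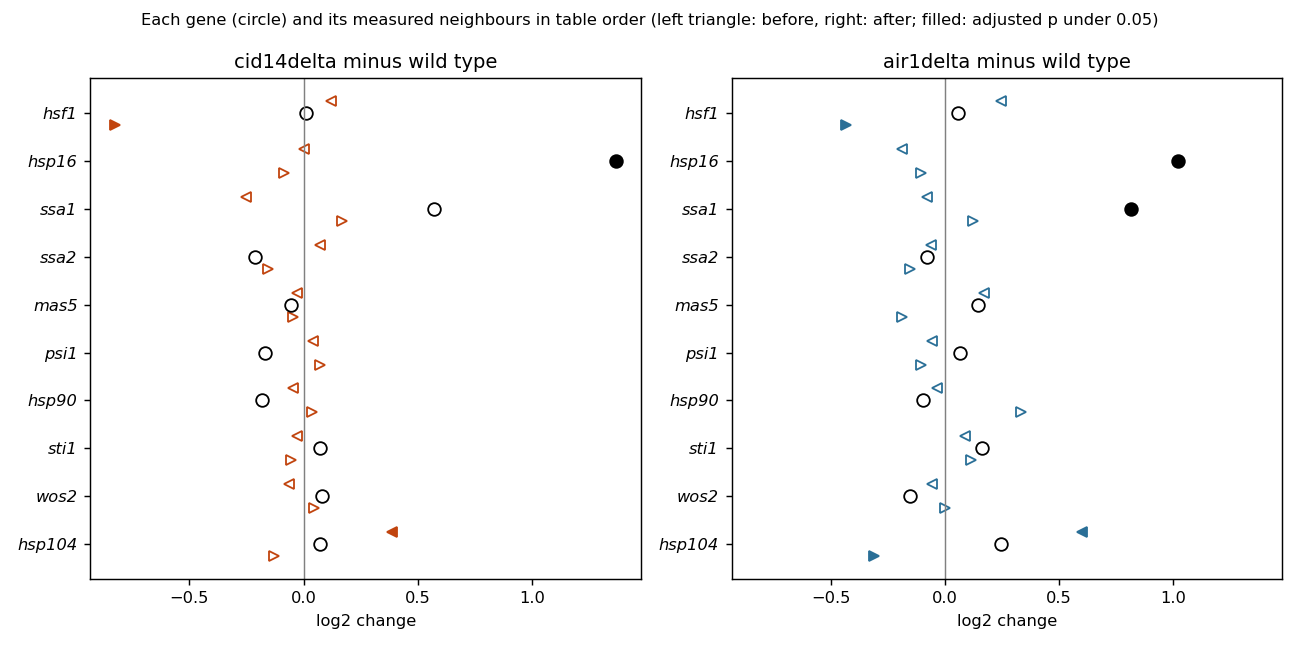
Log2 change in cid14delta (left) and air1delta (right) against wild type of each of the 10 genes (circles) and of the measured features before and after it in table order (left and right triangles); filled symbols have an adjusted p under 0.05. The circle of hsp16 stands apart from both its neighbours in both panels, and the filled triangles belong to hsf1 and hsp104.

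The features with the profile most like hsp16, by Euclidean distance over the 6 log2 values after each was set to its wild-type mean, were SPBPB2B2.06c (distance 0.43), SPCC417.03 (0.51) and mug125 (0.58). Their changes were 1.37, 1.17 and 1.51 in cid14delta and 0.82, 0.93 and 0.98 in air1delta. Those closest to ssa1 were utp23 (0.30), coa4 (0.31) and sgf29 (0.36), with changes of 0.46, 0.51 and 0.48 in cid14delta and 0.90, 0.65 and 0.77 in air1delta. None of the 64 other chaperone and stress genes was among these 6 of 5347 candidates. As the 64 are a small part of the candidates, their absence among 6 says little about how alike the profiles are. Since the 10 genes were themselves left out of the candidates, their nearness to hsp16 or ssa1 was not tested.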

How the data were processed

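The authors deposited 1 table with a log2 value per annotated feature and array, where the scale was read from the range of the values. The affy package is named, without a version, per the submitters' processing notes. How background, normalization and probe summary were handled, and on which genome build, is not given in the sources used here. The number of arrays limits the precision (median standard error 0.081), and detection calls were not used.

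Systematic IDs were matched without regard to case to a reference gene table (assembly ASM294v3), used for names and gene order. In all 5357 features matched, 20 by a synonym, and 126 did not. Of 83 symbols in the 7 added lists, 11 were not matched (caj1, jjj1, spj1, swa2, tah1, pih1, cpr6, cpr7, gim2, lhs1, crt1) and 8 repeated another symbol's gene. Sequences of promoters and proteins were not analysed here.

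limma 3.58.1 in R 4.3.3 fitted the strain to all 6 arrays (3 residual and 2.51 prior degrees of freedom), with two-sided tests and Benjamini-Hochberg adjustment over all 5483 features. On simulated data for cid14delta against wild type with 5483 features, it called 67 of 100 features changed by 0.5 and 83 of 100 changed by 1 on the log2 scale, with 12 false calls among 162. The simulation drew independent normal noise with each feature's own variance, and held no day or array-series effect. Its rates are averages over features and do not carry over to genes with larger standard errors, such as hsp16 (0.23) and ssa1 (0.22). Genes named were the 10 genes, up to 4 per list and mutant with the smallest p, the nearest measured features, and 3 features of most similar profile for each called gene. The genes git7, cct2, cct8, zym1, trx1 and those with values quoted in a second mutant fall outside this rule and were chosen after values were seen. The 10 genes and all lists were chosen with earlier results of these data known.

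Per the labels, same-numbered cid14delta and wild-type arrays shared a day, which pairs them; deviations of same-numbered arrays from the strain means correlated at r = -0.00632 between cid14delta and wild type, 0.0413 between air1delta and wild type, and 0.0159 between the mutants. Alternatives were median centring, quantile normalization, leaving out dim features, trend and robust moderation, the 4 arrays of the strains compared, a replicate block, a shared-day block, and leaving out each array.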

Additional observations from a re-analysis of the deposited data

Results flagged for a closer look

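Changes in the mutants passed the test of their difference at 4 of the 64 listed genes and at 0 of the 10, where 10% of all features passed. They lay on opposite sides of wild type without passing it at another 2. The share of all features with that pattern was not counted. Arrays that did not overlap wild type were common, at 62.7% of features in cid14delta and 69% in air1delta. After quantile normalization the cid14delta change of mas5 was 0.048, on the same side as that of air1delta. For mas5 and pdi1, both cid14delta arrays lay below and both air1delta arrays above the wild-type arrays. The difference of air1delta minus cid14delta was 0.2 for mas5 (adjusted p = 0.0832) and 0.18 for pdi1 (adjusted p = 0.172), and neither passed the limma test. The gene cct2 showed the same pattern with a difference of 0.35 that passed (adjusted p = 0.0334). The difference also passed for cct7 (0.29, adjusted p = 0.0412), pfd2 (0.52, adjusted p = 0.0289) and mdj1 (0.39, adjusted p = 0.031), all higher in air1delta. Array series and strain cannot be told apart in these comparisons. Over all features the test between the mutants called 549, but 72 with the replicate block and 68 with the shared-day block.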

How the results depend on the processing

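With 2 arrays per strain, calls near the threshold depended on the settings, while the 3 called changes of hsp16 and ssa1 kept their direction. Of 13 alternatives 7 left each estimate as it was and altered only its error, so direction was put to the test in 6. Of the 39 adjusted p-values, 22 no longer passed. The number of the 10 genes called in cid14delta, 1 as reported, was 0 with the replicate block and 0 with the shared-day block, and 0 to 1 when single arrays were left out. In air1delta, 2 as reported, it was 1 after median centring, 1 with the replicate block, 1 with the shared-day block, 0 from the 4 arrays of both strains, 3 with trend and robust moderation (mas5 added), 2 after quantile normalization with mas5 in place of ssa1, and 0 to 2 when single arrays were left out. Between the mutants it was 1 instead of 0 with trend and robust moderation. The replicate block lost hsp16 in cid14delta (1.37, adjusted p = 0.06) and in air1delta (1.02, adjusted p = 0.0507), and kept ssa1 in air1delta (adjusted p = 0.0401). The shared-day block lost ssa1 there (adjusted p = 0.0746). Listed chaperone and stress genes called in cid14delta, 2 as reported, numbered 6 without dim features, 6 with trend and robust moderation, 0 with the replicate block, 1 with the shared-day block (neither ppt1 nor gst2) and 0 from 4 arrays, and 0 to 5 when single arrays were left out. In air1delta they numbered 8 from 4 arrays, against 17 as reported, and 1 to 12 when single arrays were left out. The cause of these changes was not tested, beyond the smaller number of arrays. When an array was left out, the remaining array of its strain was assumed to vary like the others.

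None of the reversed values had passed the test. After median centring these were hsf1 (-0.055 in cid14delta, -0.017 in air1delta) and psi1 in air1delta (-0.0046). After quantile normalization they were hsf1 (-0.014) and mas5 (0.048) in cid14delta and hsp90 (0.053) and ssa2 (0.041) in air1delta. With single arrays left out, values ranged in cid14delta from -0.014 to 0.036 for hsf1, -0.0015 to 0.15 for hsp104, -0.0092 to 0.15 for sti1 and -0.031 to 0.19 for wos2, in air1delta from -0.068 to 0.20 for psi1, and in air1delta minus cid14delta from -0.050 to 0.40 for hsp104 and -0.092 to 0.58 for ssa1. Over all features, the number called in cid14delta was 475 as reported, 179 with the replicate block, 69 from 4 arrays, 46 without wild type replicate 2 and 1 without either cid14delta array. In air1delta it was 1434 as reported, 870 from 4 arrays, 535 when wild type replicate 2 was dropped, 324 when air1delta replicate 1 was dropped and 273 when the other air1delta array was dropped. The split was 640 higher and 826 lower in air1delta and 190 higher and 355 lower in cid14delta after median centring, against 901 and 533, and 262 and 213, as reported; after quantile normalization it was 616 and 662 in air1delta and 157 and 177 in cid14delta.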
